A study of Mus musculus with 18 samples.

Results

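The 10 genes followed here encode the main building blocks of the glomerular basement membrane, the sheet of extracellular matrix in the filter of the kidney. They were chosen by name and are Col4a1, Col4a2, Col4a3, Col4a4 and Col4a5 (collagen IV chains), Lama5, Lamb2 and Lamc1 (laminin chains), Agrn (agrin) and Nid1 (nidogen). They are 10 of the 24602 genes counted, and all 10 passed the low-count filter in every fit. RNA-seq was run on 18 libraries, 3 in each of 6 groups, from a knock-in line on the strain 129S1/SvlmJ in which the R388W allele of Nup93 segregates. The groups were nuclear RNA from mice homozygous for the allele (Nuclear_Hom, R388W/R388W), heterozygous (Nuclear_Het, R388W/+) and wild type (Nuclear_WT), and total RNA from the same 3 genotypes (Total_Hom, Total_Het and Total_WT). Nup93 is a scaffold protein of the nuclear pore. The labels do not tell whether the replicate libraries were made from different animals, from pools or from 1 extract, nor at what age, so the p-values reflect variation among libraries that could be technical alone.

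Collagen IV chains assemble in threes into networks. Trimers of the Col4a1 and Col4a2 products are laid down in nearly all basement membranes, by mesangial and endothelial cells among others, while the network of the Col4a3, Col4a4 and Col4a5 products forms the mature glomerular membrane and is made there by podocytes. It also occurs in some tubule membranes. The laminin of the mature glomerular membrane joins the Lama5, Lamb2 and Lamc1 chains, agrin is its main heparan sulfate proteoglycan, and nidogen links laminin to collagen IV. In humans, variants in COL4A3, COL4A4 or COL4A5 cause Alport syndrome, LAMB2 variants cause Pierson syndrome, and NUP93 variants occur in steroid-resistant nephrotic syndrome.

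The labels named the material as mouse tissue and the series text as podocytes. The podocyte transcript Nphs1 (nephrin) was present at a modest level, between 6.05 and 18.6 CPM (read counts divided by TMM-adjusted library size, per 1 M reads), against 3465 to 8024 CPM for Umod, which encodes the uromodulin of distal tubule segments. Libraries held 17.4 to 23.5 M (mega) counts, once the sum of the 9 nuclear columns, which lay within every gene of the deposited column of Total_WT replicate 1, had been subtracted from it. Xist, made from the inactive X chromosome of female cells, lay between 493.4 and 545 CPM in the Nuclear_Hom and Nuclear_Het libraries and between 333.8 and 353 CPM in Total_WT. In the Total_Hom, Total_Het and Nuclear_WT libraries it lay between 0.341 and 1.67 CPM. The summed Y-linked genes ran the other way, at 0.454 to 2.95 CPM in the first 3 of these groups and 151 to 164.5 CPM in the last 3. Every comparison with WT, and every comparison of nuclear with total RNA, thus sets libraries high in Xist against libraries low in it, and genotype or fraction and this difference cannot be told apart. Within each fraction the WT libraries are the ones whose Xist and Y-linked values differ from both mutant groups. Whether the mice differed in sex or group labels were exchanged cannot be told apart either. Exchanged WT labels would change what every value set against WT, and every nuclear and total value of WT, means. Hom and Het labels exchanged between the fractions could give the same pattern. That would also swap nuclear and total in every Hom against Het value and turn the sign of the ratio of nuclear to total. Hom against Het within a fraction does not set high against low Xist, so that comparison is described first and in most detail. It was not free of related differences. The summed Y-linked genes were 0.51 to 0.744 CPM in Nuclear_Hom and 2.32 to 2.95 CPM in Nuclear_Het. The androgen-regulated gene Kap was at 1773 to 1886 CPM in Total_Hom and 22434 to 23421 CPM in Total_Het. What these differences reflect was not tested. The R388W change alters the protein, so the Nup93 level (14.96 to 23.5 CPM) does not check the genotype labels.

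Col4a1 and Col4a2 are shown by their promoters because the pair starts from 1 shared stretch of DNA and is read in opposite directions. The windows run from 250 bases before the start of a gene to its first bases (RefSeq, GRCm38.p6, 300 bases each). Col4a1 lies on the minus strand at chr8:11312777-11313076 and Col4a2 on the plus strand at chr8:11312555-11312854, with starts 21 bases apart. The 78 bases in capitals are shared by both windows and appear as reverse complements.
Col4a1: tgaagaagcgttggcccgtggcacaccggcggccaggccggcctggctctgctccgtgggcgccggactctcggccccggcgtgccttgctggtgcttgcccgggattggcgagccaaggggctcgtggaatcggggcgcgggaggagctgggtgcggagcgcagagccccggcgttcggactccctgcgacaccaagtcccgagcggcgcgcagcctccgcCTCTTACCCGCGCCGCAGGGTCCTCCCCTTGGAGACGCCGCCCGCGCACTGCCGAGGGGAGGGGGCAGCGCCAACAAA
Col4a2: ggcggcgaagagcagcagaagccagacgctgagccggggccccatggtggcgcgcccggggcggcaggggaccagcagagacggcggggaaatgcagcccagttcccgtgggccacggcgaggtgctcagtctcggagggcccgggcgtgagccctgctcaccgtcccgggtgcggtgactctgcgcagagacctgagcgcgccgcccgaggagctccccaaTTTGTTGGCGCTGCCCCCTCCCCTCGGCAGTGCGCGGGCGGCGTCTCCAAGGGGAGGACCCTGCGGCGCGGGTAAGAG
Lama5 and Lamb2 are shown because they are the pair of members with the most similar profile over the libraries, as given further on. Lama5 is on the minus strand at chr2:180225810-180226109 and Lamb2 on the plus strand at chr9:108479612-108479911. Capitals mark GC boxes (GGGCGG on either strand).
Lama5: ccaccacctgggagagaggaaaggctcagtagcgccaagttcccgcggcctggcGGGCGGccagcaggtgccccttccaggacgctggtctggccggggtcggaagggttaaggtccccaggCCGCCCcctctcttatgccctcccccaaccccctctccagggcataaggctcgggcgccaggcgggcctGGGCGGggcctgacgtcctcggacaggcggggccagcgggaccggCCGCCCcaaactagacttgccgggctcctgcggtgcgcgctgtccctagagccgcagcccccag
Lamb2: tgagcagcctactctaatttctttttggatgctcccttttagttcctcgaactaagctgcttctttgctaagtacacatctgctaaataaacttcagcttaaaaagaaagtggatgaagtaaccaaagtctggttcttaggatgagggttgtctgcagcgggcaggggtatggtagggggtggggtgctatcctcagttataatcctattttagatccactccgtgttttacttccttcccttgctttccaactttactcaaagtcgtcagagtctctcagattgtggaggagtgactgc
The Lama5 window held 4 GC boxes and 72.7% G and C bases, while the Lamb2 window held 0 GC boxes and 44% G and C. Of 32851 mouse promoter windows of this length, 35.7% held a GC box on either strand, and the median G and C content was 52.7%. Windows were found for 8 of the 10 genes. A CCAAT box, searched as CCAAT on both strands, was in the Col4a1, Col4a2, Col4a5 and Nid1 windows and in 37.4% of all windows. TATAAA was in 13.6% of all windows and in 0 windows of these genes.

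Per kilobase of transcript, Col4a1, Col4a2, Col4a3, Col4a4 and Agrn held the first 5 places among the 10 genes in every group but Total_Hom, where Lamb2 stood above Col4a3. Col4a1 led in 4 of 6 groups, with 35.9 ± 0.695 CPM per kb in Nuclear_Hom, 33.1 ± 0.22 in Nuclear_Het, 47.4 ± 1.27 in Nuclear_WT and 48.0 ± 0.284 in Total_WT (SD, n = 3 each). In Total_Hom the first place was held by Agrn at 38.9 ± 0.163 CPM per kb, and in Total_Het by Col4a4 at 42.3 ± 0.337 (SD, n = 3 each). Col4a3 took the sixth place in Total_Hom, with 18.4 ± 0.242 CPM per kb, whereas it stood between the second and the fourth in the other 5 groups (27.5 to 36.3). Col4a5 stayed well below its partner chains, between 7.09 and 10.5 CPM per kb over the groups. Neighbours in the order overlapped between libraries for Col4a3 and Col4a4 in Nuclear_Hom, Agrn and Col4a2 in Nuclear_WT, Nid1 and Col4a5 in Total_Het, and Lama5 and Lamc1 in Total_WT, and were apart elsewhere. Every gene had 676 to 7040 counts in each library. Over the 60 combinations of gene and group the coefficient of variation between the 3 libraries had a median of 2.25%, beside 1.85% from counting alone.

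**Figure D1:**
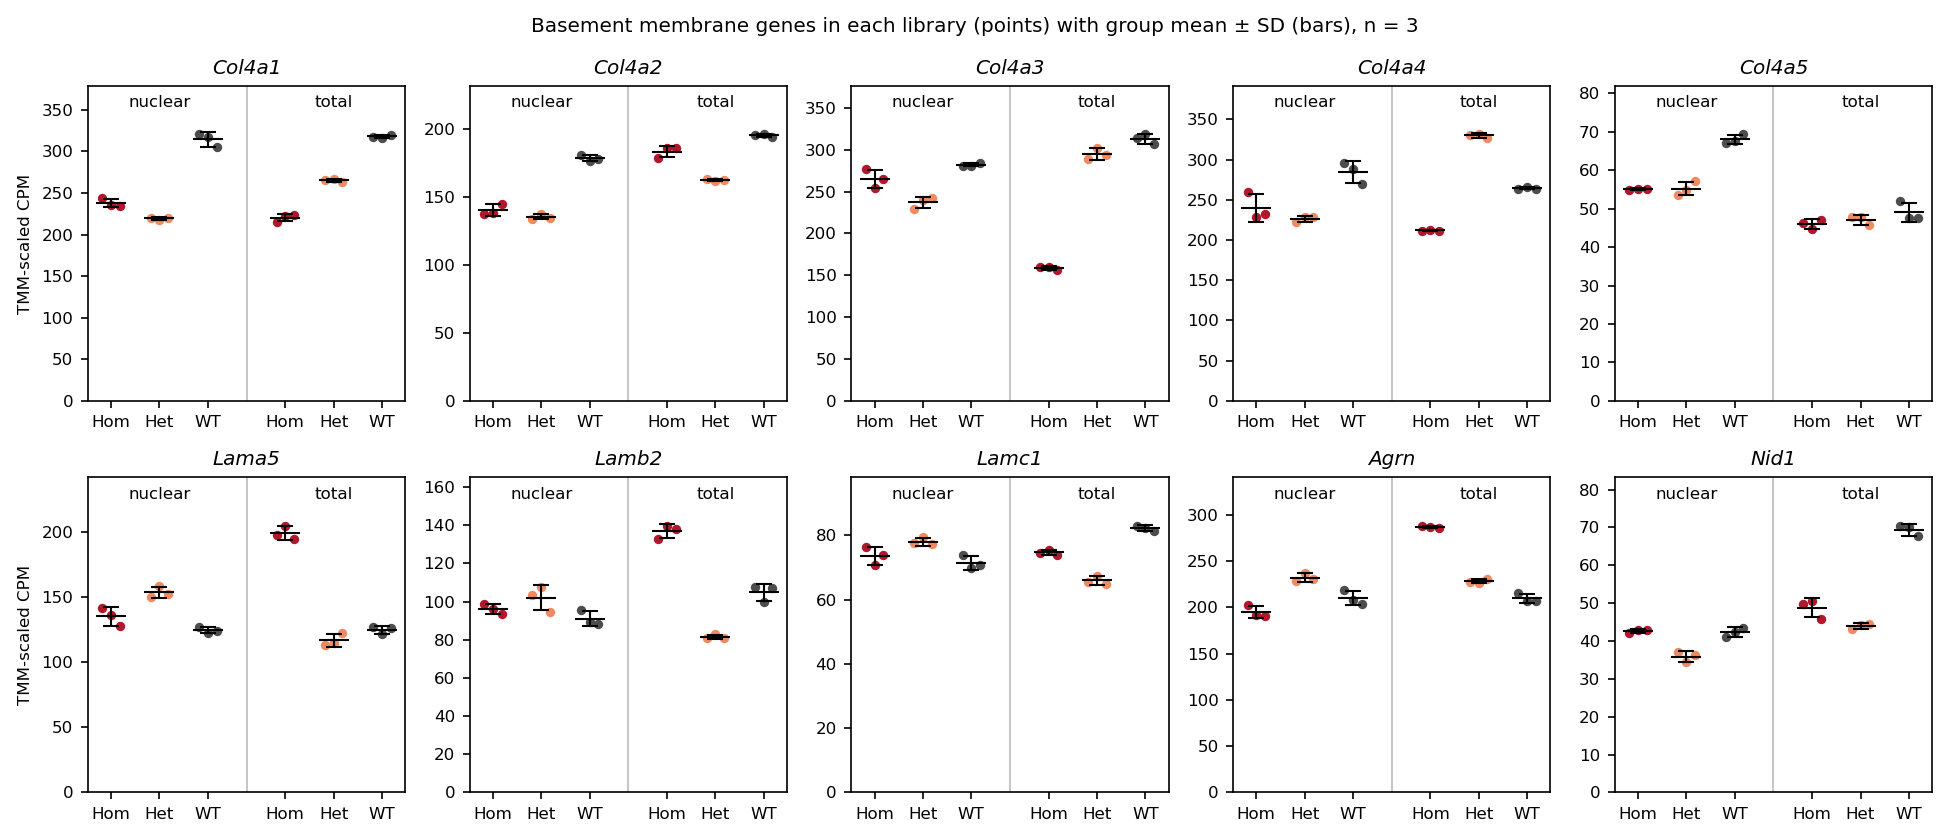
TMM-scaled CPM (y axis, from 0) of the 10 genes in each library (points) of the 6 groups (x axis), with group means and SD as bars (n = 3). Col4a3 and Col4a4 are lowest in Total_Hom, at means of 159 and 212 CPM, while Lama5, Lamb2 and Agrn are highest there, at 199, 137 and 287 CPM.

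In total RNA, Col4a1, Col4a3 and Col4a4 were lower in Hom than in Het libraries, and the laminin chains, agrin, nidogen and Col4a2 were higher. Col4a5 was not called. Of the 10 genes 9 were called, 6 higher and 3 lower in Total_Hom than in Total_Het, where 67.0% of 15051 genes were called, 32.9% higher and 34.1% lower. At a difference of at least 1.5-fold, 2 genes were higher (Lama5 and Lamb2) and 2 lower (Col4a3 and Col4a4), beside 13.4% and 9.87% of all genes. A call is an adjusted p under 0.05 in edgeR's quasi-likelihood test with Benjamini-Hochberg adjustment over all genes tested. In bulk RNA, fewer cells of a type and less RNA per cell cannot be told apart.

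Col4a3 had 159, 160.1 and 156 CPM in the Total_Hom libraries, against 289, 302 and 294 CPM in Total_Het. All 3 Total_Hom libraries lay far below all 3 Total_Het libraries. The difference was −0.89 ± 0.02 on the log2 scale (SE), a ratio of 0.539 (edgeR adjusted p = 6.94e-70). Its partner Col4a4 had 211, 213 and 212 CPM in Total_Hom and 331, 332 and 327 CPM in Total_Het, again without overlap. Col4a4 was lower by a ratio of 0.644 (log2 −0.63 ± 0.02 SE, edgeR adjusted p = 7.53e-55). Col4a5, the third chain of this network and encoded on the X chromosome, had 46.2, 44.6 and 47.1 CPM in Total_Hom and 47.9, 47.8 and 45.6 CPM in Total_Het. These groups overlapped, and the log2 difference of −0.03 ± 0.05 (SE) was not called (edgeR adjusted p = 0.581). With library totals in place of TMM factors, the Col4a5 difference was 0.12 (edgeR adjusted p = 0.0467), while the median of all genes was 0.16, against 0.01. Relative to that median it was −0.04.

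The widely made chains Col4a1 and Col4a2, which share a promoter region, went in opposite directions. Col4a1 had 215, 222 and 223 CPM in Total_Hom and 266, 267 and 263 CPM in Total_Het. Every Total_Hom library was below every Total_Het library, with a log2 difference of −0.26 ± 0.02 (SE, edgeR adjusted p = 1.09e-19). Col4a2 had 179, 186 and 186 CPM in Total_Hom and 163, 162 and 162 CPM in Total_Het. The Total_Hom libraries were the higher ones without overlap (log2 0.18 ± 0.03 SE, edgeR adjusted p = 1.91e-09), but with the column of Total_WT replicate 1 as deposited, Col4a2 was no longer called (log2 0.19, edgeR adjusted p = 0.0786). The 2 genes overlap by 22 exonic bases on opposite strands in the GENCODE M21 annotation, and whether the counting used strand is not given in the sources used here.

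The laminin chains were all higher in Total_Hom. Lama5, the alpha chain, had 198, 205 and 195 CPM in Total_Hom and 113, 114 and 122.7 CPM in Total_Het. Lamb2, the beta chain of the mature membrane, had 133, 139.8 and 138 CPM in Total_Hom and 81.1, 82.8 and 80.8 CPM in Total_Het. Neither gene's groups overlapped, and the log2 differences were 0.77 ± 0.03 for Lama5 (SE, edgeR adjusted p = 1.4e-53) and 0.75 ± 0.03 for Lamb2 (SE, edgeR adjusted p = 9.74e-47). Lamc1, the gamma chain, which is shared by most laminins, had 74.5, 75.6 and 74.0 CPM in Total_Hom and 65.6, 67.5 and 64.9 CPM in Total_Het. Its difference was smaller, at 0.18 ± 0.04 (SE, edgeR adjusted p = 1.97e-06), also without overlap. Total_Hom replicate 2 carried 7.12% of its counts on the ribosomal precursor Rn45s, against at most 1.02% elsewhere, and the 9 calls in this comparison stood at 9 when any 1 library of total RNA was left out.

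Agrin and nidogen were also higher in Total_Hom. Agrn had 288, 287 and 286 CPM in Total_Hom and 228, 226 and 230.4 CPM in Total_Het (log2 0.34 ± 0.02 SE, edgeR adjusted p = 1.7e-26). The 3 Total_Hom values were within 3 CPM of each other and far above the Total_Het values. Nid1 had 49.8, 50.5 and 45.9 CPM in Total_Hom and 43.1, 44.3 and 44.5 CPM in Total_Het. Its groups were apart by little more than 1 CPM, and the log2 difference of 0.15 ± 0.05 (SE, edgeR adjusted p = 0.00183) was lost with Total_WT replicate 1 as deposited (log2 0.16, edgeR adjusted p = 0.512). With library totals, 68.4% of the calls over all genes in this comparison were in the higher direction, against 49.1% with TMM factors, and the 9 genes other than Col4a5 kept their signs.

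In nuclear RNA the same genotypes differed much less. Of the 10 genes 5 were called, 3 higher (Col4a1, Col4a3 and Nid1) and 2 lower (Lama5 and Agrn) in Nuclear_Hom than in Nuclear_Het, where 43.2% of 15112 genes were called, 21.4% higher and 21.8% lower, and 0 of the 10 reached 1.5-fold in either direction (2.30% and 8.01% of all genes). Col4a3 had 276, 255 and 264 CPM in Nuclear_Hom and 229, 239.7 and 242 CPM in Nuclear_Het. The Nuclear_Hom libraries were the higher ones without overlap (log2 0.16 ± 0.03 SE, edgeR adjusted p = 6.14e-07). Col4a1 had 243, 236 and 235 CPM in Nuclear_Hom against 220.3, 218 and 220.1 CPM in Nuclear_Het, a log2 difference of 0.12 ± 0.03 (SE, edgeR adjusted p = 0.000179) that was 0.06 and not called with library totals (edgeR adjusted p = 0.0524). Nid1 stood at 42.0, 43.0 and 42.8 CPM in Nuclear_Hom and 37.0, 34.3 and 36.3 CPM in Nuclear_Het (log2 0.25 ± 0.05 SE, edgeR adjusted p = 1.55e-05). These 3 genes were thus higher in every Nuclear_Hom library than in any Nuclear_Het library.

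Lama5 and Agrn ran the other way in nuclear RNA. Lama5 had 142, 136 and 128 CPM in Nuclear_Hom and 150.3, 158 and 152 CPM in Nuclear_Het (log2 −0.18 ± 0.03 SE, edgeR adjusted p = 1.59e-06). Agrn had 203, 192 and 191 CPM in Nuclear_Hom and 228, 237 and 231 CPM in Nuclear_Het (log2 −0.25 ± 0.03 SE, edgeR adjusted p = 4.54e-12). All Nuclear_Hom libraries were below all Nuclear_Het libraries for both genes. The remaining 5 genes were not called. Col4a2 differed by 0.05, Col4a4 by 0.08, Col4a5 by 0.00, Lamb2 by −0.09 and Lamc1 by −0.09 on the log2 scale, and Col4a4, Lamb2 and Lamc1 passed the threshold when all 18 libraries formed 1 fit, which gave 8 calls. Without Nuclear_Het replicate 3, Lamb2 was called at −0.14 (edgeR adjusted p = 0.00246). Without Nuclear_Hom replicate 2, Col4a4 was called at 0.11 (edgeR adjusted p = 0.0104), and without Nuclear_Hom replicate 1, Lamc1 was called at −0.11 (edgeR adjusted p = 0.0221). With library totals, 33.5% of calls over all genes were in the higher direction, against 49.6% with TMM factors, and Col4a2 stood at −0.01.

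**Figure D2:**
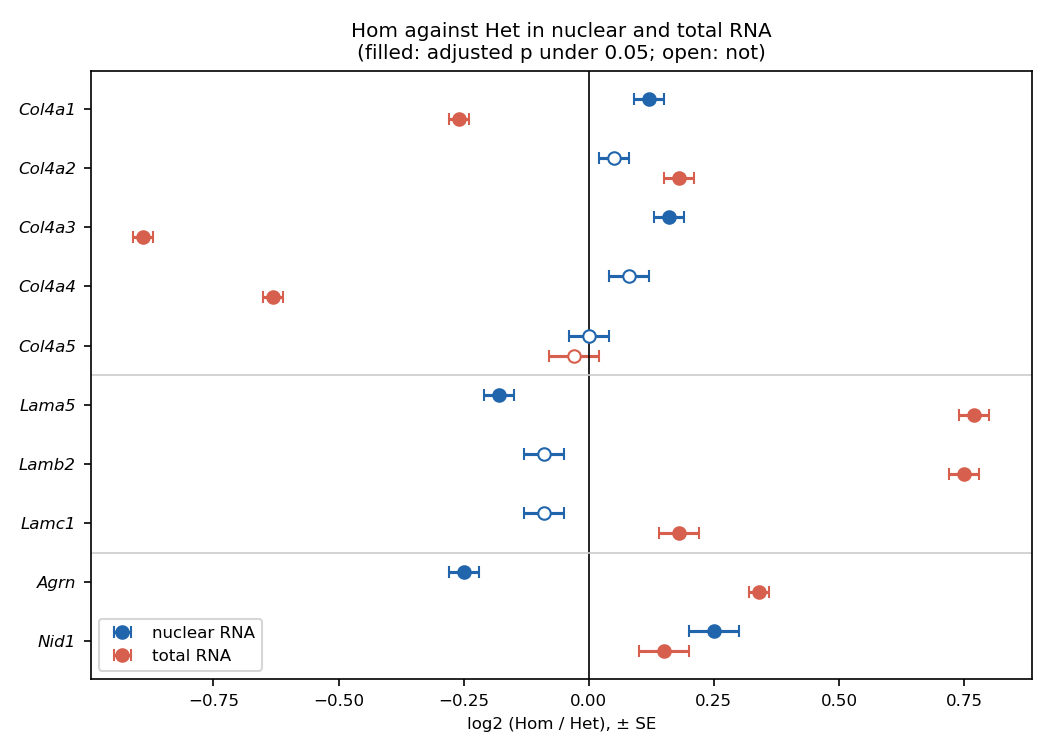
Log2 difference of Hom and Het libraries (x axis, with SE) for each gene (y axis) in nuclear RNA (blue) and total RNA (red), filled where called. Col4a3 and Col4a4 lie at −0.89 and −0.63 in total RNA but at 0.16 and 0.08 in nuclear RNA, and Lama5 and Lamb2 at 0.77 and 0.75 in total RNA but at −0.18 and −0.09 in nuclear RNA.

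The genotype difference itself differed between the fractions. The nuclear-to-total ratio was tested as an interaction over all 18 libraries, and 8 of the 10 genes were called, 3 with a higher and 5 with a lower ratio in Hom than in Het, where 63.6% of 15410 genes were called, 31.7% higher and 31.9% lower. The ratio was higher for Col4a3 by 1.06 ± 0.04, for Col4a4 by 0.72 ± 0.04 and for Col4a1 by 0.39 ± 0.04 on the log2 scale (SE). It was lower for Lama5 (−0.95 ± 0.05), Lamb2 (−0.83 ± 0.05), Agrn (−0.58 ± 0.04), Lamc1 (−0.26 ± 0.05) and Col4a2 (−0.13 ± 0.04). Each of these 8 calls was kept when any 1 library was left out. Nid1 (0.10) and Col4a5 (0.03) were not called, and these 2 took negative values with library totals (−0.11 and −0.18), a scaling under which the median of all genes was −0.23, against −0.02, and 29.1% of calls were in the higher direction, against 49.8%. Xist was high in both nuclear groups and low in both total groups of this test, so fraction and Xist cannot be told apart. The Y-linked genes ran the other way, so as labelled the nuclear and total libraries of a genotype were not of the same material. A difference between animals thus cannot be told apart from a difference between fractions. With Total_WT replicate 1 as deposited, the Col4a2 ratio was not called (log2 −0.13, edgeR adjusted p = 0.246). Relative to WT, Xist also differed between the genotypes of a fraction. There, 9 of the 10 genes were called in Hom, 4 with a higher and 5 with a lower ratio (56.1%, 28.4% and 27.7% of genes). In Het 9 were called too, 4 higher and 5 lower (70.7%, 37.8% and 32.9%).

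Ratios between chains within a library do not depend on the scaling. The Col4a1 to Col4a2 ratio, per kilobase, was 1.17, 1.16 and 1.17 in the Total_Hom libraries, against 1.59, 1.60 and 1.57 in Total_Het and 1.57, 1.57 and 1.61 in Total_WT. In nuclear RNA it was 1.65 ± 0.0756 in Nuclear_Hom, 1.58 ± 0.031 in Nuclear_Het and 1.71 ± 0.0419 in Nuclear_WT (SD, n = 3 each). Total_Hom was the 1 group that stood apart from the other 5. The summed Col4a3, Col4a4 and Col4a5 over the summed Col4a1 and Col4a2, a measure of the mature against the widely made chains, was 0.854 ± 0.0185 in Total_Hom, 1.29 ± 0.0144 in Total_Het and 0.994 ± 0.0128 in Total_WT (SD, n = 3 each). The same ratio lay between 1.06 and 1.27 in the nuclear libraries.

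Within the mature network, Col4a3 over Col4a4 was 0.679 ± 0.00849 in Total_Hom, 0.811 ± 0.0182 in Total_Het and 1.07 ± 0.017 in Total_WT (SD, n = 3 each), and these 3 groups did not overlap. It lay between 0.963 and 1.03 in Nuclear_Hom, between 0.934 and 0.958 in Nuclear_Het and between 0.863 and 0.956 in Nuclear_WT. Lama5 over Col4a3, a ratio added after values were seen, reached 0.95 ± 0.0163 in Total_Hom, against 0.30 ± 0.0149 in Total_Het and 0.302 ± 0.0127 in Total_WT (SD, n = 3 each), the largest fold between groups among the ratios examined. Lamb2 replaces Lamb1, the beta chain of immature and many other membranes, as the glomerulus matures. Lamb2 over Lamb1 was 0.631 ± 0.0209 in Total_Hom, 0.406 ± 0.00915 in Total_Het and 0.441 ± 0.0277 in Total_WT (SD, n = 3 each). In nuclear RNA Hom was instead below Het without overlap, at 0.429 ± 0.0125 in Nuclear_Hom, 0.52 ± 0.0344 in Nuclear_Het and 0.419 ± 0.00743 in Nuclear_WT (SD, n = 3 each). Lama5 over Lama1, the alpha chain of early kidney laminin, was 5.11 ± 0.408 in Total_Hom, 2.14 ± 0.175 in Total_Het and 3.44 ± 0.157 in Total_WT (SD, n = 3 each). Here too the nuclear order was the other one, with 3.12 ± 0.216 in Nuclear_Hom, 4.06 ± 0.0564 in Nuclear_Het and 2.63 ± 0.163 in Nuclear_WT (SD, n = 3 each). These ratios are given as a description, without a test.

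**Figure D3:**
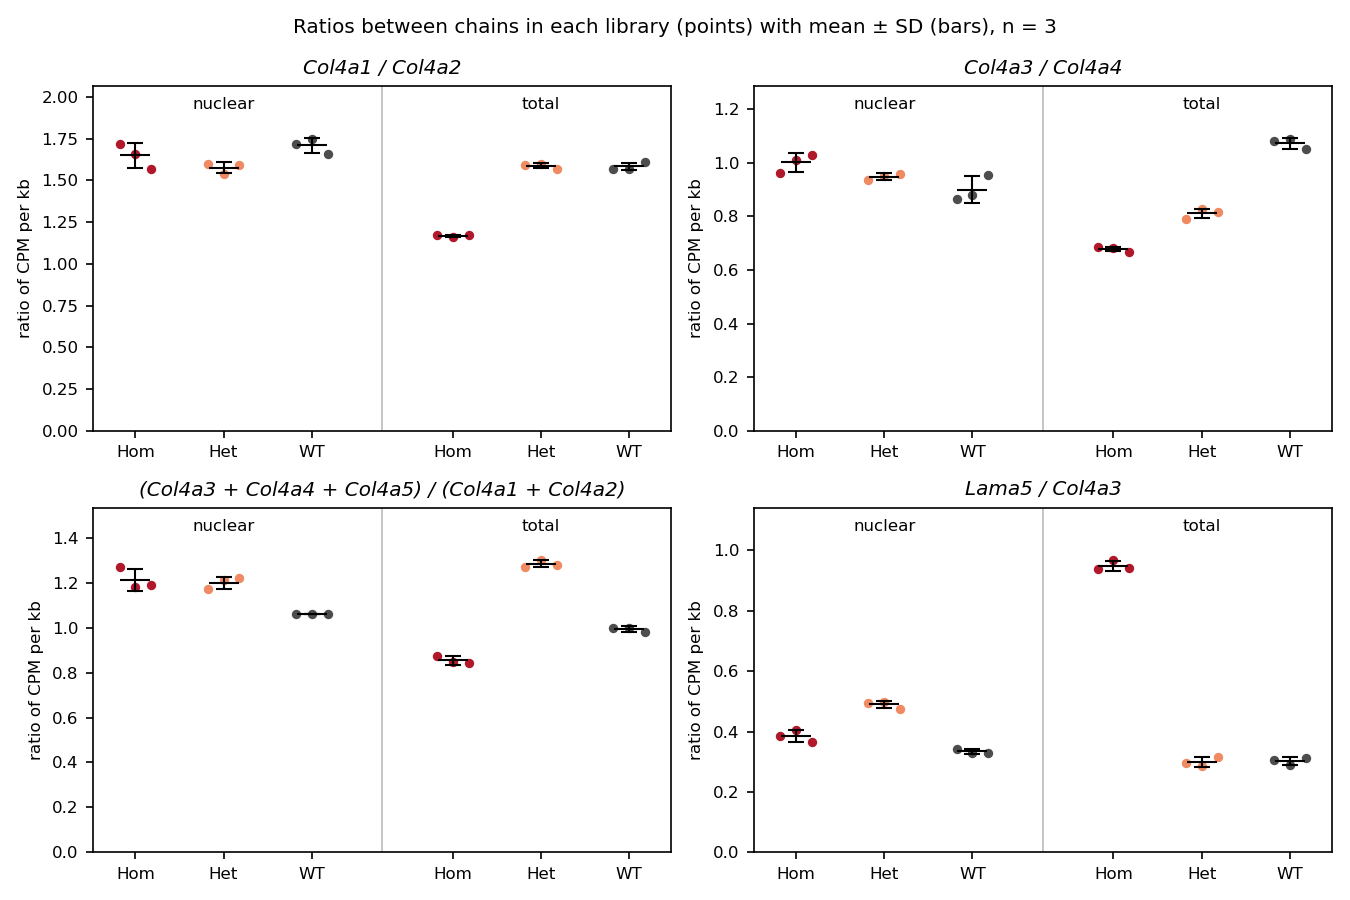
Ratios of CPM per kb between chains (y axis, from 0) in each library (points) of the 6 groups (x axis), with means and SD as bars (n = 3). Col4a1 over Col4a2 is 1.17 in Total_Hom and 1.58 to 1.71 in the other groups, and Lama5 over Col4a3 is 0.95 in Total_Hom and 0.30 to 0.49 in the others.

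Set against wild type in total RNA, where Total_Hom and Total_WT also differ in Xist, 9 of the 10 genes were called, 3 higher in Total_Hom and 6 lower, beside 61.6%, 30.6% and 31.0% of 15051 genes. Col4a3 had its 159 ± 2.09 CPM in Total_Hom against 313 ± 6.14 CPM in Total_WT (SD, n = 3 each), a log2 difference of −0.97 ± 0.02 (SE, edgeR adjusted p = 1.05e-74). Also lower were Col4a1 (−0.52), Nid1 (−0.50), Col4a4 (−0.31), Lamc1 (−0.13) and Col4a2 (−0.08) on the log2 scale. Higher were Lama5 (0.68), Agrn (0.46) and Lamb2 (0.39). Past 1.5-fold were Lama5 (8.65% of all genes higher) and Col4a3 (7.83% lower). Nid1 was 48.8 ± 2.48 CPM in Total_Hom and 69.4 ± 1.54 CPM in Total_WT (SD, n = 3 each), with no overlap. With Total_WT replicate 1 as deposited, the Nid1 call was lost (−0.27, edgeR adjusted p = 0.288), as was that of Lamc1 (−0.08, edgeR adjusted p = 0.171), and Col4a2 took the opposite sign (0.03).

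Total_Het against Total_WT had 9 genes called, 2 higher and 7 lower, beside 61.1%, 30.9% and 30.3% of genes. Col4a4 was 330.0 ± 2.63 CPM in Total_Het and 264 ± 1.22 CPM in Total_WT (SD, n = 3 each), higher by 0.32 ± 0.02 on the log2 scale (SE, edgeR adjusted p = 2.83e-26). For Col4a4, Total_Het was thus above Total_WT and Total_Hom below it, and the 3 groups did not overlap. Nid1 had the largest difference of the 10 (log2 −0.66 ± 0.04 SE, 10.9% of all genes at least 1.5-fold lower), followed by Lamb2 (−0.36) and Lamc1 (−0.32). Col4a2 (−0.27), Col4a1 (−0.26), Lama5 (−0.10) and Col4a3 (−0.08) were also lower, and Agrn was higher by 0.12, which turned to −0.06 with library totals. Without Total_Het replicate 1, Lama5 was not called (−0.08, edgeR adjusted p = 0.0546). With library totals 24.5% of calls over all genes were higher, against 50.5%. With Total_WT replicate 1 as deposited, 5 of the 10 genes were called, and Col4a1, Col4a2, Col4a3 and Nid1 were not. Cell type markers moved in the same comparison. Lower were 16 of 18 podocyte markers (1 higher, median log2 −0.87) and 15 of 16 endothelial markers (1 higher, median −0.32). So were 7 of 9 mesangial markers (2 higher, median −0.67) and 11 of 11 distal nephron markers (median −0.65). The other lists were mixed. Of 12 proximal tubule markers, 8 were higher and 4 lower (median 0.12). Parietal markers were higher for 3 of 7 and lower for 4, and immune markers higher for 3 of 13 and lower for 2. In Total_Hom against Total_WT, 5 of 18 podocyte markers were higher and 8 lower (median −0.04), and 10 of 16 endothelial markers were higher and 3 lower (median 0.19). The part of these markers in the changes of the 10 genes was not tested.

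In nuclear RNA, all 5 collagen IV genes among the 10 were lower in both mutant genotypes than in Nuclear_WT. Nuclear_Hom against Nuclear_WT had 7 genes called, 1 higher and 6 lower (54.3%, 26.5% and 27.8% of 15112 genes). Nuclear_Het against Nuclear_WT had all 10 called, 4 higher and 6 lower (64.6%, 32.8% and 31.7%). These 2 comparisons share their WT libraries. Col4a1 had 238 ± 4.61 CPM in Nuclear_Hom and 219 ± 1.46 CPM in Nuclear_Het, against 314 ± 8.44 CPM in Nuclear_WT (SD, n = 3 each). Both mutant groups were below every Nuclear_WT library, at log2 −0.40 ± 0.03 for Hom and −0.52 ± 0.03 for Het (SE). Col4a5 had 55.0 ± 0.23 CPM in Nuclear_Hom, 55.2 ± 1.74 in Nuclear_Het and 68.0 ± 1.21 in Nuclear_WT (SD, n = 3 each), at −0.30 ± 0.04 (SE) in both comparisons. Col4a2 stood at −0.35 in Hom and −0.40 in Het, Col4a4 at −0.24 in Hom and −0.33 in Het, and Col4a3 at −0.09 in Hom and −0.25 in Het. Lama5 was higher than in Nuclear_WT in both, by 0.12 in Hom and 0.30 in Het, while Agrn was −0.10 in Hom and 0.15 in Het. Col4a6, a collagen IV gene outside the 10 that is named after its values were seen, had a higher mean than in Nuclear_WT in both (0.26 in Hom, 0.60 in Het). Its Nuclear_Hom libraries (9.17, 8.97 and 7.73 CPM) overlapped those of Nuclear_WT (6.42, 8.46 and 6.92 CPM). The Nuclear_Het libraries (11.32, 11.99 and 9.36 CPM) did not. Immune markers were higher for 9 of 13 in Hom (median 0.41) and for 12 of 13 in Het (median 2.25). Proximal tubule markers were lower for 8 of 12 in Hom (median −0.12) and for 10 of 12 in Het (median −0.57). Podocyte markers were higher for 8 of 18 in Hom (3 lower) and for 12 of 18 in Het (2 lower). Mesangial markers were higher for 6 of 9 in Hom (0 lower, median 0.29) and for 5 in Het (1 lower, median 0.44). Endothelial markers were higher for 10 of 16 in Hom (3 lower) and for 8 in Het (2 lower). Parietal markers were higher for 5 of 7 in Hom (0 lower) and in Het (1 lower). Distal nephron markers were lower for 5 of 11 in Hom (4 higher) and for 7 in Het (4 higher). Their part in the changes of the 10 genes was not tested.

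Some of the small nuclear differences rested on the scaling or on 1 library. With library totals, Col4a3 and Agrn in Nuclear_Hom against Nuclear_WT turned to 0.04 and 0.02, Nid1 in Nuclear_Het against Nuclear_WT stood at −0.06 (edgeR adjusted p = 0.309), and 73.9% of calls over all genes were higher in Hom and 75.9% in Het, against 48.8% and 50.9%. Without Nuclear_Hom replicate 2 Col4a3 was −0.06 (edgeR adjusted p = 0.104), and without Nuclear_WT replicate 1 Agrn was −0.07 (edgeR adjusted p = 0.0603) and Lamb2 was called at 0.11 (edgeR adjusted p = 0.0277).

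**Figure D4:**
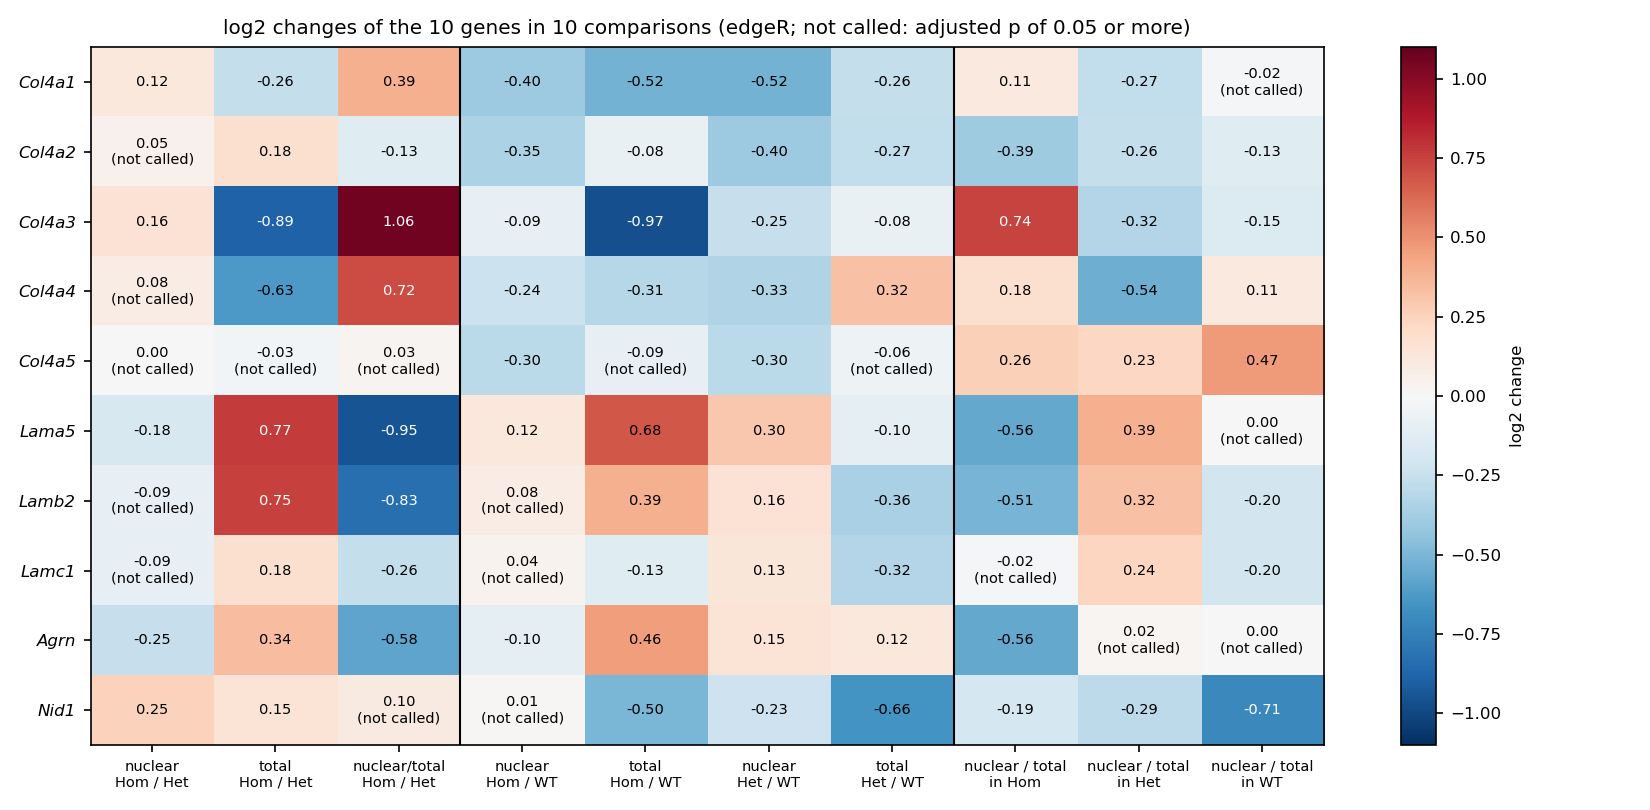
Log2 changes of the 10 genes (rows) in 10 comparisons (columns), with red for higher and blue for lower values in the first-named group. The Hom to Het column of total RNA ranges from −0.89 for Col4a3 to 0.77 for Lama5, and that of nuclear RNA from −0.25 for Agrn to 0.25 for Nid1.

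Nuclear and total RNA of a genotype differed in Xist as well as in fraction. In Hom, 9 of the 10 genes differed, 4 being higher and 5 lower in the nuclear fraction (60.3%, 30.5% and 29.8% of 15410 genes), with Col4a3 at 0.74 ± 0.03 and Lama5 and Agrn at −0.56 ± 0.03 each (log2, SE). In Het, 9 differed, with 4 higher and 5 lower (63.6%, 33.4% and 30.2%), with Lama5 at 0.39 ± 0.03 and Col4a4 at −0.54 ± 0.03 (log2, SE). In WT, 7 differed, with 2 higher and 5 lower (61.7%, 30.9% and 30.8%), with Col4a5 at 0.47 ± 0.04 and Nid1 at −0.71 ± 0.04 (log2, SE). Col4a5 was higher in nuclear than in total RNA in all 3 genotypes (0.26 in Hom, 0.23 in Het, 0.47 in WT), while in each genotype Nid1 and Col4a2 stood lower. For Nid1 the values were −0.19 in Hom, −0.29 in Het and −0.71 in WT, and for Col4a2 −0.39 in Hom, −0.26 in Het and −0.13 in WT. With library totals, Col4a2 and Nid1 in Het kept the sign but not the call (−0.06 and −0.09), Col4a4 in WT was −0.05 in place of 0.11, and the share of calls in the higher direction was 77.3% in Het and 25.4% in WT, against 52.5% and 50.1%. With Total_WT replicate 1 as deposited, Nid1 was not called in Hom (−0.20, edgeR adjusted p = 0.292) or Het (−0.29, edgeR adjusted p = 0.126), nor Col4a2 in WT (−0.01, edgeR adjusted p = 0.873).

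Genes that process, bind or remodel these proteins were counted from lists chosen by function. The shares over all genes to set beside these counts are 32.9% higher and 34.1% lower in total RNA, and 21.4% higher and 21.8% lower in nuclear RNA, for Hom against Het. Of 23 collagen-processing genes tested, 3 were higher and 13 lower in Total_Hom than in Total_Het, with a median log2 difference of −0.18 beside 0.01 over all genes. The lower ones included Plod2 (−1.23), a lysyl hydroxylase, Pxdn (−1.20), the peroxidase that cross-links collagen IV, Serpinh1 (−0.49), the collagen chaperone HSP47, and Mia2 (−0.40), an export factor of the endoplasmic reticulum. In nuclear RNA, 6 of these 23 were higher and 5 lower, among them P3h2, a prolyl hydroxylase acting on collagen IV, at 0.40. Of 28 other basement membrane components, 18 were higher and 6 lower in Total_Hom (median 0.23), including Dcn (1.13, decorin), Npnt (0.45, nephronectin) and Tinag (−0.97, of tubular membranes). In nuclear RNA, 7 were higher and 13 lower (median −0.04), with Tgfbi at −1.04 and Smoc2 at −0.64. Col4a6, encoded head to head with Col4a5 and named here after its values were seen, had 12.3 ± 0.825 CPM in Total_Hom and 4.29 ± 0.585 CPM in Total_Het (SD, n = 3 each), a log2 difference of 1.53 ± 0.12 (SE, edgeR adjusted p = 2.08e-25).

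Of 22 receptor genes for the membrane tested, 14 were higher and 5 lower in Total_Hom than in Total_Het (median 0.16), led by Bcam (1.25), a receptor of the laminin alpha chain that Lama5 encodes, and Itga3 (0.61) and Itgb4 (1.14), laminin-binding integrin subunits. In nuclear RNA 6 were higher and 9 lower (median −0.05), with Sdc1 at −0.74, Itga3 at −0.52 and Bcam at −0.39. Of 22 proteases and inhibitors, 13 were higher and 6 lower in Total_Hom (median 0.24), the meprin genes Mep1a (−2.24) and Mep1b (−1.66) and the inhibitor gene Timp3 (−0.78) being among the lower ones. In nuclear RNA 6 of the 22 were higher and 13 lower (median −0.16). Of 21 genes for heparan sulfate synthesis, which modify agrin, 9 were higher and 2 lower in Total_Hom (median 0.08), and 4 were higher and 4 lower in Nuclear_Hom than in Nuclear_Het (median 0.00), near the shares of 21.4% and 21.8% over all genes in nuclear RNA. In total RNA those shares were 32.9% higher and 34.1% lower.

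Genes listed as markers of kidney and immune cell types moved in the same comparisons. In Total_Hom against Total_Het, where 32.9% of all genes were higher and 34.1% lower, 14 of 18 podocyte markers tested, of 19 listed, were higher and 1 lower, 15 of 16 endothelial markers were higher and 0 lower, and 7 of 7 parietal markers were higher. The summed podocyte markers lay between 904.5 and 924.5 CPM in Total_Hom, between 638 and 648 CPM in Total_Het and between 911 and 937 CPM in Total_WT. The endothelial sum was 2092 to 2115 CPM in Total_Hom and 1431 to 1441 CPM in Total_Het. Of the 12 genes marking the proximal tubule, 4 were called higher and 8 lower, and their sum was 35058 to 35679 CPM in Total_Hom and 58316 to 59298 CPM in Total_Het. Most of that gap was 1 gene, Kap (kidney androgen-regulated protein), at 1773 to 1886 CPM in Total_Hom and 22434 to 23421 CPM in Total_Het. Without Kap, an omission chosen after its values were seen, the sum was 33285 to 33792 CPM in Total_Hom and 35592 to 35882 CPM in Total_Het. Col4a3 and Col4a4, podocyte products in the glomerulus, were thus lower in libraries where podocyte markers summed higher, and Lama5 and Lamb2 were higher there. Mesangial markers (4 of 9 higher, 1 lower) summed to 331 to 337 CPM in Total_Hom and 249.5 to 263 CPM in Total_Het. Distal nephron markers (8 of 11 higher, 3 lower) summed to 10310 to 10352 CPM in Total_Hom and 9472 to 9484 CPM in Total_Het. Of 13 immune markers, 2 were higher and 4 lower, with sums of 344 to 352 CPM in Total_Hom and 374 to 388 CPM in Total_Het.

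In Nuclear_Hom against Nuclear_Het, where 21.4% of all genes were higher and 21.8% lower, 2 of 18 podocyte markers were higher and 9 lower, with sums of 781 to 787 CPM in Nuclear_Hom and 886 to 915 CPM in Nuclear_Het. Proximal tubule markers were higher for 11 of 12, with sums of 37404 to 37848 CPM in Nuclear_Hom and 33341 to 34242 CPM in Nuclear_Het. Of 13 immune markers 12 were lower, with sums of 249 to 260 CPM in Nuclear_Hom and 647 to 679 CPM in Nuclear_Het. Endothelial sums were 1348 to 1366 CPM in Nuclear_Hom and 1289 to 1309 CPM in Nuclear_Het, with 6 of 16 markers higher and 3 lower. Mesangial sums were 319.7 to 334 CPM in Nuclear_Hom and 367 to 370.1 CPM in Nuclear_Het (2 of 9 higher, 2 lower), and parietal sums 604 to 607 CPM in Nuclear_Hom and 709 to 739.6 CPM in Nuclear_Het (1 of 7 higher, 5 lower). Distal nephron sums were 10493 to 10573 CPM in Nuclear_Hom and 10239 to 10527 CPM in Nuclear_Het (6 of 11 higher, 2 lower). On these lists 0 markers were without counts, and the part of cell makeup in the changes of the 10 genes was not tested.

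Over the 18 libraries, the profiles of the 10 genes were compared with those of all 15409 other genes tested by the root mean square difference of log2(CPM + 1), each gene centred on its own mean. The closest pair of members was Lama5 and Lamb2, whose promoters are shown above, at 0.115, with Lamb2 ranked 45 from Lama5 and Lama5 ranked 87 from Lamb2. Agrn ranked 296 from Lama5, and Lama5 956 from Agrn. Col4a4 ranked 621 from Col4a3, but Col4a3 ranked 4044 from Col4a4, to which Col4a1 was nearer (rank 2282). The difference of Col4a3 and Col4a4 was 0.218, against a median over all genes of 0.377 from Col4a3 and 0.290 from Col4a4. Col4a2 ranked 890 from Col4a1 and Col4a1 573 from Col4a2 (difference 0.183, against a median over all genes of 0.293 from Col4a1 and 0.280 from Col4a2). Col4a2 ranked 48 from Nid1, and Nid1 715 from Col4a2. The farthest pair was Col4a3 and Lama5, at 0.579. The nearest genes of all were Prepl, Pkhd1 and Morn2 for Col4a3, Psmd2, Vcp and Cnot11 for Col4a4, Leng8, Vat1 and Rack1 for Lama5, and Rhob, Hip1r and Fam195b for Lamb2. For Nid1 they were Lama2, Fbln5 and Eng, for Agrn Fbxo6, Tpst2 and Ankrd11, and for Lamc1 Capn2 and Calm2. For Col4a1 they were Agtr1a, Pdia5 and Ccng2, for Col4a2 Csrp2, Lmo4 and Eml1, and for Col4a5 Mavs, Tsc22d1 and Bag3. The points share libraries, depth and scaling, and the ranks are a description.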

How the data were processed

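Per the labels' protocols, TRIzol extracts were turned into libraries with the KAPA Stranded mRNA-Seq kit. The submitters' processing notes name CASAVA, STAR 2.5.2b, featureCounts, DESeq2 and the build mm9 without roles. The annotation, and whether counting used strand, are not given in the sources used here. The authors deposited raw read counts by gene symbol, and their length column served here for values per kilobase. Because the deposited column of Total_WT replicate 1 held 200140709 counts, 10.2 times the mean of the other 17, with 0 genes under the nuclear sum (9 columns, 181106189), that sum was subtracted, leaving 19034520 counts.

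The counts were fitted with edgeR 4.0.16 in R 4.3.3 (filterByExpr, TMM, robust glmQLFit, glmQLFTest), and Benjamini-Hochberg adjusted p under 0.05 made a call. Genotype comparisons used the 9 libraries of a fraction, and the nuclear-to-total ratio and the comparison of fractions used all 18. SE were derived from the tests, as the absolute log2 change divided by the square root of the F statistic. The fits were tested on simulated data with known changes for calls, sign and size of change, not for the SE. CPM values used TMM factors over 18 libraries. Depth was 17.4 to 23.5 M (mega) counts, and counting error is all that depth describes. Promoter windows came from RefSeq (GRCm38.p6), a later build than mm9.

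The 10 genes and the supporting lists were chosen with earlier results of these data known. All 10 were named in every comparison, with up to 4 genes per list (smallest p, mean of 5 CPM or more) and the 3 nearest genes per member. A few of the genes these rules select are not reported here. The count at 1.5-fold and the ratio of Lama5 to Col4a3 were added after values were seen. Other settings tried were DESeq2 1.42.0, library totals or RLE factors for scaling, another filter (none, or a mean of 5 CPM), a replicate block, Total_WT replicate 1 as deposited, Rn45s removed, a fit of only the 2 groups compared or of all 18 libraries, and each library left out. The proximal tubule sum without Kap was added after values were seen.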

Additional observations from a re-analysis of the deposited data

Results flagged for a closer look

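The change between genotypes differed between nuclear and total RNA for most of the 10 genes, by the interaction test in edgeR (nuclear minus total effect, log2). Most genes of the whole table were called as well, 63.6% in Hom against Het, 56.1% in Hom against WT and 70.7% in Het against WT. In Hom against Het, neither fraction by itself sets high against low Xist. Xist was high in both nuclear groups and low in both total groups, so fraction and Xist cannot be told apart here. As labelled, the nuclear and total libraries of a genotype were thus not of the same material, and animal and fraction cannot be told apart either. The difference was 1.06 for Col4a3, 0.72 for Col4a4, 0.39 for Col4a1, −0.13 for Col4a2, −0.26 for Lamc1, −0.58 for Agrn, −0.83 for Lamb2 and −0.95 for Lama5. The collagen chains Col4a1, Col4a3 and Col4a4 and the laminin chains had opposite signs.

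In Hom against WT, where Xist and genotype cannot be told apart, it was 0.89 for Col4a3, 0.52 for Nid1, 0.18 for Lamc1, 0.13 for Col4a1, −0.21 for Col4a5, −0.26 for Col4a2, −0.31 for Lamb2, −0.55 for Lama5 and −0.56 for Agrn. In Het against WT it was 0.52 for Lamb2, 0.44 for Lamc1, 0.42 for Nid1, 0.40 for Lama5, −0.13 for Col4a2, −0.17 for Col4a3, −0.25 for Col4a5, −0.26 for Col4a1 and −0.65 for Col4a4. The 3 comparisons share libraries.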

How the results depend on the processing

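Over the 10 genes and 12 comparisons, DESeq2 and RLE size factors gave the direction and call of all 120 values. Leaving out each library in turn preserved direction and call for 1602 of 1620 values, and the number of genes called ranged from 6 to 7 (main 7) in nuclear Hom against WT, from 5 to 7 (main 5) in nuclear Hom against Het, from 8 to 9 (main 9) in total Het against WT and from 9 to 10 (main 9) in the ratio of Hom against WT. Signs changed when a library was left out for Nid1 in nuclear Hom against WT (−0.01 to 0.03), Col4a1 in nuclear against total RNA of WT (−0.03 to 0.01) and Lamc1 in that of Hom (−0.05 to 0.01). Values of 0.00 in the main fit also fell on both sides of it. These were Agrn (−0.03 to 0.03) and Lama5 (−0.02 to 0.01) in nuclear against total RNA of WT, and Col4a5 (−0.03 to 0.02) in nuclear Hom against Het. Library totals alone reversed 12 values. These were Col4a3 (0.04) and Agrn (0.02) in nuclear Hom against WT, Col4a2 (−0.01) in nuclear Hom against Het, Agrn (−0.06) in total Het against WT, Col4a5 (0.12) in total Hom against Het, Col4a4 (−0.05) in nuclear against total RNA of WT, Col4a5 (−0.18) and Nid1 (−0.11) in the ratio of Hom against Het, and Col4a1 (0.10), Col4a2 (0.22), Col4a3 (0.19) and Col4a5 (0.11) in the ratio of Het against WT. In that last comparison the median of all genes was 0.43 with library totals, against 0.07 with TMM, and 78.7% of calls were higher, against 53.4%. The shares in the ratio of Hom against WT were 70.4% and 50.7%. A mean of at least 5 CPM turned Col4a5 in the ratio of Hom against Het to −0.01. With Total_WT replicate 1 as deposited, Col4a2 in total Hom against WT was 0.03, Col4a1 in nuclear against total RNA of WT was 0.08, and 5 genes in place of 9 were called in total Het against WT and in the ratio of Hom against WT. All 18 libraries in 1 fit called 8 genes in place of 5 in nuclear Hom against Het. Apart from what the settings change by construction, the cause was not tested. With the replicate number as a block, 118 of 120 values kept their call and 2 passed the threshold (Col4a4 at 0.08 and Lamb2 at −0.09 in nuclear Hom against Het). Deviations of same-numbered libraries had 45 correlations between −0.08 and 0.09, so no pairing by number was seen. A pairing is not excluded, since the spread of the 10 genes between libraries was near counting error (median 2.25% beside 1.85%). Depth limits small changes, since counting error alone gives a coefficient of variation of 1.26% to 3.75% per library.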
